A study of Mus musculus with 8 samples.

Results

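The S100 proteins are small calcium sensors. The 7 genes described here are S100a1, S100a4, S100a6, S100a10, S100a11, S100a13 and S100a16, and they were chosen by name as 7 of the 20681 rows of a table of normalised read counts from mouse knee joints. S100a8 and S100a9, known from neutrophils, and S100b, known from Schwann cells and cartilage, were left out of the group by that rule. All 7 genes had enough reads to be tested. The rule itself uses names and no measured value, but the genes were picked with earlier results of these data known.

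Each S100 protein carries a pair of EF hands, helix-loop-helix folds that bind calcium, and most work as dimers that expose a binding surface for a partner protein when calcium rises. S100A10 is the exception that does not need calcium and is held in a complex with annexin A2 at the membrane. The partners are annexins, cytoskeletal proteins and channels inside the cell, and some S100 proteins that reach the outside of cells bind receptors such as RAGE, the product of Ager. In a joint, S100A4, S100A6, S100A10 and S100A11 are known from connective tissue and immune cells, while S100A1 is known from striated muscle, where it acts on calcium release and uptake.

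RNA was sequenced from 8 whole knee joints. The label control stands on 4 of them and the label knockout on the other 4, where the targeted gene, Loxl2, encodes a collagen-crosslinking enzyme. According to the study's design text, the mice of both groups were Acan-Cre;Loxl2 fl/fl. In such a line Cre under the control of the aggrecan gene can remove Loxl2 from cells that express Acan, such as chondrocytes, while other joint cells keep the gene. With this genotype in both groups, whether Loxl2 was also removed in the controls is not stated. The design text calls the controls vehicle-treated. What the knockout mice received in place of vehicle, and the strain, sex and age of the mice, are not given in the sources used here, and whatever was given is part of the contrast. All 8 library names carry DMM, usually the surgical destabilisation of the medial meniscus, so the controls share it. The same names carry LOXL2wt for the controls and LOXL2ko for the group labelled knockout, while the design text gives both groups the same genotype. How these descriptions go together is not stated. The replicates are numbered joint samples that are not stated to be separate animals, and p-values then measure the spread between these samples only. In RNA from a whole joint, a change in the number of cells of a type and a change in the RNA of each cell cannot be told apart.

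The libraries held 13991000 to 17411617 reads assigned to genes. Loxl2 itself went against the labels. It stood at normalised read counts of 282, 349, 1135 and 311 in the control libraries 1 to 4 and at 893, 1468, 960 and 1518 in those labelled knockout, a log2 difference of 1.44 (SE 0.40, limma adjusted p = 0.0294). One control library, replicate 3, lay inside the knockout range, and the call was lost with edgeR (adjusted p = 0.0669), with DESeq2 (adjusted p = 0.0659) and in 5 of 8 fits that left out 1 library. The 4 libraries are therefore called "labelled knockout" throughout. Every direction given here follows the labels and would turn if the labels of the groups had been exchanged, which was not tested.

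The levels of most of these S100 genes were higher in the libraries labelled knockout. S100a4, S100a11, S100a10, S100a6 and S100a16 rose, by log2 differences of 1.50, 1.01, 0.92, 0.82 and 0.47. S100a13 was higher by 0.52 without passing the test, and S100a1 was the only member with a lower mean, at a log2 difference of -0.26 that did not pass either. Thus 5 of 7 members were called higher at an adjusted p under 0.05, and 0 were called lower, also at an unadjusted p under 0.05 and with edgeR and DESeq2, which each called 6 higher. Of the 14949 genes tested, 11.6% were called higher, 11.6% lower and 23.2% in either direction. The median difference of the 7 members was 0.82 on the log2 scale, beside 0.00 for all genes tested. Summed over the 7 genes, the normalised read count was 4303 to 6485 in the control libraries and 6819 to 9306 in those labelled knockout.

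The count of 5 rested on the libraries used. It ranged from 2, without knockout replicate 4, to 6, without control replicate 3, when 1 library was left out, and it was 3 without control replicate 1, control replicate 2 or knockout replicate 2. Over all genes tested the calls moved too, from 3461 with all libraries to 1740 without knockout replicate 4 and 3490 without control replicate 3. They were 2968, 1909 and 2393 without control replicate 1, control replicate 2 and knockout replicate 2. Skeletal muscle markers fell along the same contrast, and with a muscle marker score in the limma model 0 of 7 members were called, 0 at an unadjusted p under 0.05. In that model 0 of the 14949 genes tested were called, with 583 at an unadjusted p under 0.05, since 84.3% of the variance of the score lay between the groups, which leaves little to separate the group from the score.

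**Figure D1:**
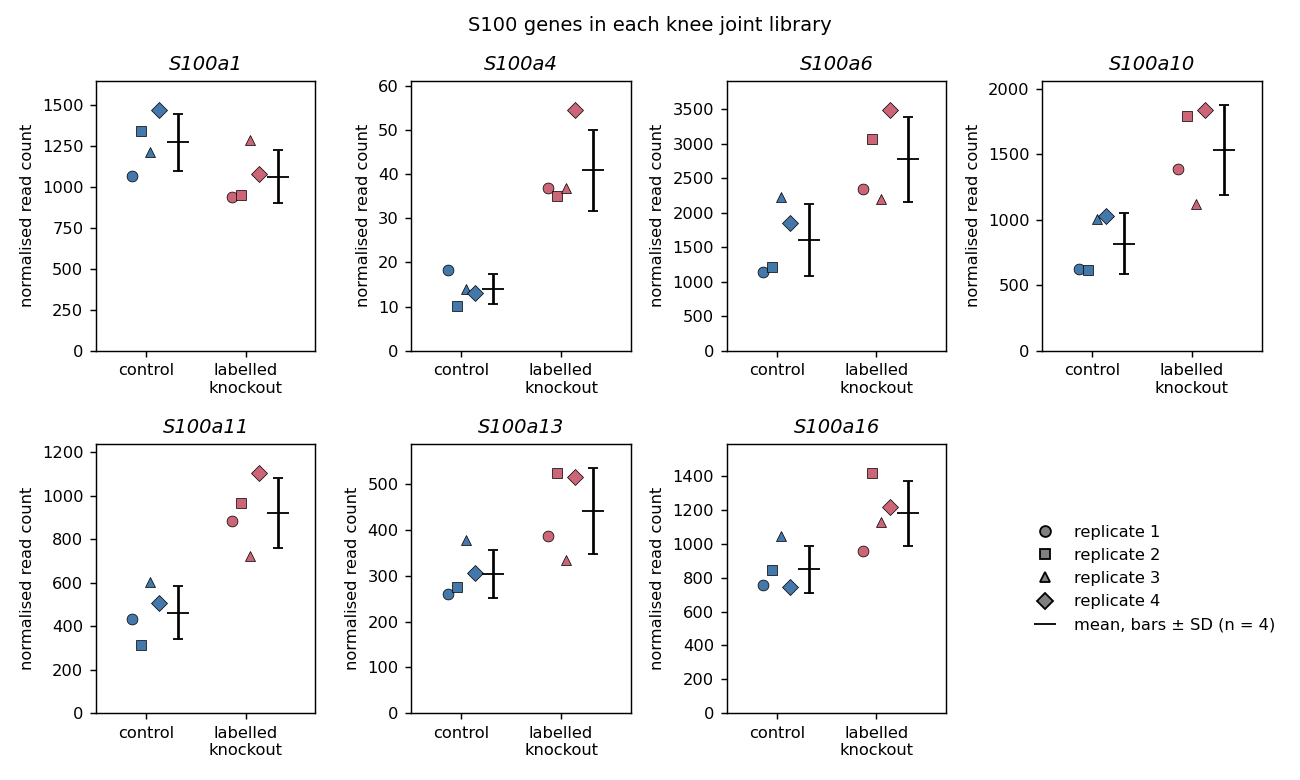
Normalised read count (vertical axes, from 0) of the 7 S100 genes in each library, with the replicate shown by the symbol and the mean ± SD (n = 4) beside each group. S100a4, S100a10 and S100a11 do not overlap between the groups, S100a6, S100a13 and S100a16 overlap through 1 or more libraries, and S100a1 is the gene with the lower mean in the libraries labelled knockout.

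S100a10 (chromosome 3, 93555080 to 93564643, + strand, mm10) encodes the light chain of the annexin A2 complex. Its normalised read count was 622, 617, 1005 and 1030 in the control libraries (replicates 1 to 4, as in each list that follows) and 1385, 1791, 1117 and 1839 in those labelled knockout. The groups did not overlap, although knockout replicate 3, the lowest of its group, was close to control replicates 3 and 4, which stood well above control replicates 1 and 2. The mean went from 818 ± 230 to 1533 ± 344 (SD, n = 4), a log2 difference of 0.92 (SE 0.22, limma adjusted p = 0.0168; exact permutation p = 0.0286, the smallest that 4 against 4 libraries allow).

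S100a11 (chromosome 3, 93520488 to 93526287, + strand) lies beside S100a10 and encodes a protein that binds annexin A1. It was read at 433, 313, 602 and 506 in the control libraries and at 883, 968, 724 and 1106 in those labelled knockout. Every library labelled knockout exceeded every control library. The mean was 463 ± 122 against 920 ± 160 (SD, n = 4), a log2 difference of 1.01 (SE 0.20, limma adjusted p = 0.00917; exact permutation p = 0.0286). S100a11 was called in each of the 8 fits that left out 1 library, with log2 differences of 0.84 to 1.15. Leaving out knockout replicate 4 took S100a10 to an adjusted p of 0.0536 in limma, and the other 7 such fits called it.

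S100a6 (chromosome 3, 90612882 to 90624181, + strand) encodes calcyclin, which binds annexins and the ubiquitin ligase adaptor CacyBP. Its values were 1148, 1213, 2230 and 1848 in the control libraries and 2346, 3068, 2196 and 3493 in those labelled knockout. The groups overlapped, because control replicate 3 stood above knockout replicate 3, and control replicates 1 and 2 were again the low ones. The mean of 1610 ± 520 against 2775 ± 611 (SD, n = 4) gave a log2 difference of 0.82 (SE 0.23, limma adjusted p = 0.0298; exact permutation p = 0.0571). Without control replicate 1 the adjusted p of limma was 0.0657, without control replicate 2 it was 0.0840, without knockout replicate 2 it was 0.0744 and without knockout replicate 4 it was 0.0865.

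S100a4 (chromosome 3, 90603771 to 90606045, + strand) encodes metastasin, also called fibroblast-specific protein, which binds the heavy chain of non-muscle myosin IIA. It was the scarcest of the 7 genes, with 10 to 62 reads per library. The normalised read counts were 18.4, 10.1, 14.02 and 13.1 in the control libraries and 36.9, 35.1, 37.0 and 54.6 in those labelled knockout. The groups were apart, with knockout replicate 4 well above the other 3 libraries of its group. Means of 13.9 ± 3.43 and 40.9 ± 9.17 (SD, n = 4) differed by a log2 of 1.50 (SE 0.28, limma adjusted p = 0.00792; exact permutation p = 0.0286). The call held in each of the 8 fits without 1 library, with log2 differences of 1.35 to 1.63.

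The low count of S100a4 has to be read with its annotation. In GENCODE M21, 302 of its 584 exonic bases are also exonic in Gm42674, a transcript on the same strand that starts upstream and runs through the S100a4 locus, and 282 bases are its own. A read in a shared exon can be assigned to either gene or to neither, the annotation and the setting used in the authors' counting are not given in the sources used here, and Gm42674 has no row among those analysed. The level of S100a4 may thus be understated, and its part in the result was not tested. The other 6 members share no exonic base with another annotated gene.

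**Figure D2:**
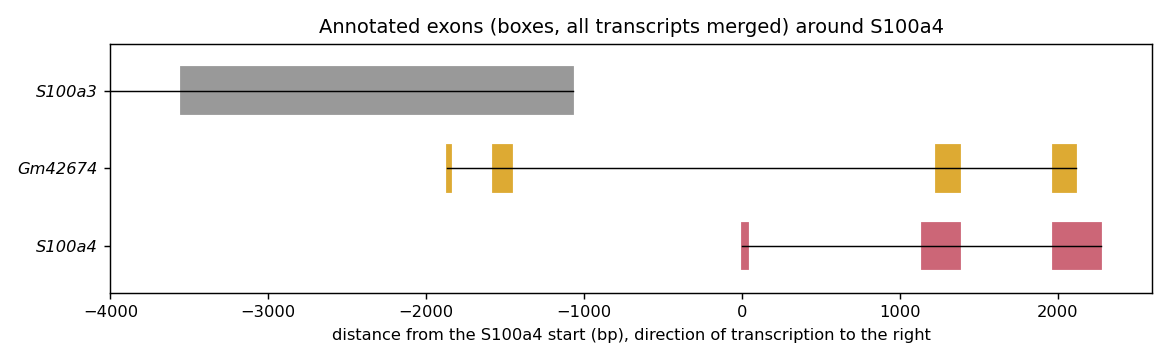
Exons (boxes) of S100a4, of the overlapping transcript Gm42674 and of the neighbour S100a3, merged over their annotated transcripts, by distance in bp from the start of S100a4, with transcription to the right. The last 2 exons of Gm42674 fall on exons 2 and 3 of S100a4, which is the 302 bp that the genes share.

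S100a16 (chromosome 3, 90537254 to 90543151, + strand) is a widely expressed member. It stood at 757, 847, 1046 and 747 in the control libraries and at 959, 1418, 1126 and 1216 in those labelled knockout. Knockout replicate 1 was below control replicate 3, so the groups overlapped. From a mean of 849 ± 139 to one of 1180 ± 191 (SD, n = 4), the log2 difference was 0.47 (SE 0.14, limma adjusted p = 0.0387; exact permutation p = 0.0571). This was the least secure of the calls, which held in 2 of the 8 fits without 1 library, those without control replicate 3 or knockout replicate 1, and reached an adjusted p of 0.0970 without control replicate 4.

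S100a13 (chromosome 3, 90514435 to 90524581, + strand) encodes a protein that takes part in the release of FGF1 and interleukin 1α, which lack a signal peptide. The control libraries gave 260, 276, 378 and 306 and those labelled knockout 387, 524, 335 and 516. Knockout replicate 3 fell below control replicate 3, and the other 3 libraries labelled knockout were above all controls. The means were 305 ± 52.3 and 440 ± 94.3 (SD, n = 4), a log2 difference of 0.52 (95% interval 0.13 to 0.91, SE 0.17) with a limma adjusted p of 0.0543 and an exact permutation p of 0.0571. It passed with edgeR (adjusted p = 0.0484), with DESeq2 (adjusted p = 0.0237) and with a scaling that leaves out muscle and blood genes (limma adjusted p = 0.0262). It also passed without control replicate 3 (limma adjusted p = 0.0304) and without knockout replicate 3 (limma adjusted p = 0.0226).

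S100a1 (chromosome 3, 90511034 to 90514392, - strand), the striated muscle member, went the other way. Its values were 1065, 1341, 1210 and 1470 in the control libraries and 939, 948, 1284 and 1081 in those labelled knockout. The groups overlapped, and knockout replicate 3, the library that was low for most other members, was the highest of its group. The mean of 1272 ± 174 against 1063 ± 161 (SD, n = 4) gave a log2 difference of -0.26 (95% interval -0.55 to 0.03, SE 0.13), which did not pass the test (limma adjusted p = 0.171; exact permutation p = 0.143). The difference kept its sign in the alternative fits. It was -0.11 with scaling outside muscle and blood genes (limma adjusted p = 0.530) and -0.15 with quantile normalisation (limma adjusted p = 0.415).

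The ratio of S100a1 to each of the other members was lower in the libraries labelled knockout. The log2 ratio of S100a1 to S100a11 was 1.30, 2.10, 1.01 and 1.54 in the control libraries and 0.09, -0.03, 0.83 and -0.03 in those labelled knockout, so that the groups did not overlap. The difference was -1.27 (exact permutation p = 0.0286). Against S100a4, S100a10 and S100a16 the groups were also apart, with differences of -1.75, -1.18 and -0.73 and the same exact p. Against S100a6 and S100a13 they overlapped, with differences of -1.08 and -0.78 (exact permutation p = 0.0571 each). Adjusted over the 8 ratios computed, the exact permutation p was 0.0571 for the 4 ratios that separated and 0.0762 for the other 2, so none passed at 0.05.

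The remaining 2 of those ratios set a member against its annexin. S100a10 to Anxa2 had a log2 ratio of -1.03, -1.08, -1.19 and -0.77 in the control libraries and of -1.18, -1.09, -1.36 and -1.17 in those labelled knockout, a difference of -0.18 (exact permutation p = 0.171, adjusted 0.196). S100a11 to Anxa1 also differed by -0.18 on the log2 scale (exact permutation p = 0.257, adjusted 0.257). Both pairs of groups overlapped.

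Levels were set between genes per kilobase of annotated exon. That length is merged over all annotated transcripts of a gene, so the order and shares depend on it, and which transcripts were expressed was not tested. On this scale S100a1 was the highest member in the control libraries with a median of 1838 normalised reads per kb (1535 to 2118). S100a6 followed with a median of 1120 (839 to 1631), then S100a11 with 918 (612 to 1178), S100a10 with 671 (509 to 850), S100a16 with 496 (462 to 647) and S100a13 with 406 (363 to 528). The ranges of each pair of neighbours in this order overlapped. S100a4 was far below them all, with a median of 23.3 per kb (17.3 to 31.5).

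In the libraries labelled knockout the order at the top was different. S100a6 had the highest median, 1980 reads per kb (1606 to 2555), followed by S100a11 with 1811 (1417 to 2165), S100a1 with 1462 (1354 to 1851) and S100a10 with 1310 (922 to 1517). The ranges of these neighbours overlapped. S100a16, at 724 (593 to 877) and below the range of S100a10, S100a13, at 631 (468 to 733), and S100a4, at 63.2 (60.0 to 93.4), kept the lower places. S100a1 made up 26.5% to 39.7% of the summed per-kb level of the 7 genes in the control libraries and 15.8% to 26.3% in those labelled knockout, while S100a11 went from 12.6% to 18.4% to 20.2% to 24.2%.

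Among the other S100 genes, S100b, a dimer-forming member of glia and cartilage, rose. It was read at 107, 96.9, 123 and 74.5 in the control libraries and at 235, 285, 169 and 228 in those labelled knockout, a log2 difference of 1.18 (SE 0.20, limma adjusted p = 0.00588). S100a3 had values of 1.08, 1.01, 14.02 and 0 against 15.0, 23.9, 20.7 and 17.6, where control replicate 3 stood close to the knockout range. Its log2 difference of 2.83 (SE 0.76, limma adjusted p = 0.0255) rests on few reads and was 4.03 with a pseudocount of 0.1 and 1.15 with a pseudocount of 10. Control replicate 3 was the only control library to reach the value of 10 that the filter asks of 4 libraries. S100a3 was thus tested through its level in the libraries labelled knockout. The call was lost with edgeR (adjusted p = 0.0746) and held in 3 of 8 fits without 1 library. S100a3 also shares exonic bases with Gm42674. The neutrophil genes S100a8 and S100a9 overlapped between the groups and were not called, with log2 differences of -0.33 and -0.36 (limma adjusted p = 0.608 and 0.545). S100a7a and S100a14 were too low to be tested, and S100a5, S100g and S100z had no row in the table.

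Annexins, the calcium-dependent membrane-binding proteins that several S100 dimers bridge, were mixed. Of 10 tested, 4 were called higher and 1 lower, and 7 had a difference above 0, with a median of 0.53 on the log2 scale. The 5 calls became 2 without control replicate 2 or knockout replicate 4 and 3 without knockout replicate 2. Anxa2, the partner of S100A10, stood at 1273, 1303, 2291 and 1751 in the control libraries and at 3134, 3808, 2875 and 4134 in those labelled knockout. The groups did not overlap and the log2 difference was 1.10 (SE 0.19, limma adjusted p = 0.00656). Anxa1, the partner of S100A11, had values of 887, 786, 1731 and 1301 against 2326, 3212, 1642 and 3523. Here knockout replicate 3 lay below control replicate 3, and the log2 difference was 1.19 (SE 0.29, limma adjusted p = 0.0179). Anxa5, a binder of exposed phosphatidylserine, rose by 0.78 (SE 0.21, limma adjusted p = 0.0272), and the other call was Anxa4, with a difference of 0.46. Anxa6, an annexin with a duplicated core, fell by 0.48 on the log2 scale (SE 0.10, limma adjusted p = 0.0106), from a mean of 3731 to 2688, with no overlap.

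The complex of S100A10 and annexin A2 binds plasminogen and its activator at the cell surface. Of 6 tested genes of that system and of S100A10 targets, 2 were called higher, 0 lower and 6 had a difference above 0. The count called was 5 with DESeq2 and with scaling outside muscle and blood genes. It was 4 without control replicate 3. Leaving out any of the other 3 control libraries, or knockout replicate 2 or 4, made it 1. Plat, the tissue plasminogen activator, rose by 1.30 (SE 0.19, limma adjusted p = 0.00431), from 130, 91.9, 148 and 107 to 331, 263, 229 and 356, without overlap. Plau, the urokinase, rose by 0.77 (SE 0.21, limma adjusted p = 0.0286), from a mean of 183 to one of 299. Plg, the plasminogen gene itself, had no row.

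Of 5 targets of S100A4 and S100A6, 1 was called higher and 1 lower. Myh9, which encodes the myosin IIA heavy chain bound by S100A4, rose by 0.49 (SE 0.11, limma adjusted p = 0.0157) from a mean of 1814 to 2535, and Myh10, the IIB heavy chain, fell by 0.60 on the log2 scale (SE 0.19, limma adjusted p = 0.0434) from 677 to 442. The groups were apart for Myh9 and overlapped for Myh10, whose call held in 2 of 8 fits without 1 library.

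Of 5 receptors for S100 proteins, 1 was called in each direction. Alcam, an adhesion receptor, rose by 1.11 (SE 0.29, limma adjusted p = 0.0246), from 21.6, 14.1, 15.0 and 14.2 to 41.9, 39.3, 42.4 and 22.9. Cd36, a scavenger receptor also of muscle and fat, fell by 0.60 on the log2 scale (SE 0.14, limma adjusted p = 0.0152), from a mean of 4777 to 3189. Ager was near the detection limit, at 14.1, 8.08, 11.2 and 13.1 against 18.0, 18.8, 0 and 25.5. Its log2 difference of -0.31 (limma adjusted p = 0.834) carries no direction, since the mean was higher in the libraries labelled knockout and the sign turned with a pseudocount of 10, with edgeR and with DESeq2.

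The release partner of S100A13 that could be tested, Fgf1, fell by 0.41 on the log2 scale (SE 0.10, limma adjusted p = 0.0155), from 796, 808, 712 and 745 to 620, 495, 609 and 577. The other 2 genes of that list were too low to test. Of the 6 muscle targets of S100A1, 2 were called lower and 0 higher, with a median difference of -0.58 on the log2 scale. The other 4 did not pass the test. Ryr1, the calcium release channel of skeletal muscle, fell by 1.04 on the log2 scale (SE 0.15, limma adjusted p = 0.00399), and Atp2a1, the calcium pump of fast fibres, fell by 0.99 (SE 0.26, limma adjusted p = 0.0245). S100a1 itself differed by -0.26, which did not pass.

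Among 12 EF-hand calcium sensors outside the family, 2 were called higher, 2 lower and the median difference was -0.08. Efhd2, a sensor of the actin cytoskeleton, rose by 0.94 (SE 0.16, limma adjusted p = 0.00581) and Sri, which encodes sorcin, rose by 0.61 (SE 0.10, limma adjusted p = 0.00496). Calm3, one of the calmodulin genes, fell by 0.47 on the log2 scale (SE 0.11, limma adjusted p = 0.0171), and Pvalb, parvalbumin of fast muscle fibres, fell by 0.67 (SE 0.19, limma adjusted p = 0.0297).

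Without 1 library, the calls of Anxa2, Anxa6, Plat, Myh9, Cd36, Fgf1, Ryr1, Efhd2, Sri, Calm3 and S100b held in all 8 fits. Anxa1 was called in 6 of them, Alcam in 4, Anxa4, Anxa5 and Atp2a1 in 3, Pvalb in 2 and Plau in 1. Scaling outside muscle and blood genes ended the lower calls of Myh10 (limma adjusted p = 0.106), Fgf1 (limma adjusted p = 0.0685), Calm3 (limma adjusted p = 0.0563) and Pvalb (limma adjusted p = 0.0575). Quantile normalisation ended the lower calls of Anxa6 (limma adjusted p = 0.0699), Cd36 (limma adjusted p = 0.0976), Myh10 (limma adjusted p = 0.0561), Calm3 (limma adjusted p = 0.252) and Pvalb (limma adjusted p = 0.0620), and the higher call of Alcam (limma adjusted p = 0.0668).

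**Figure D3:**
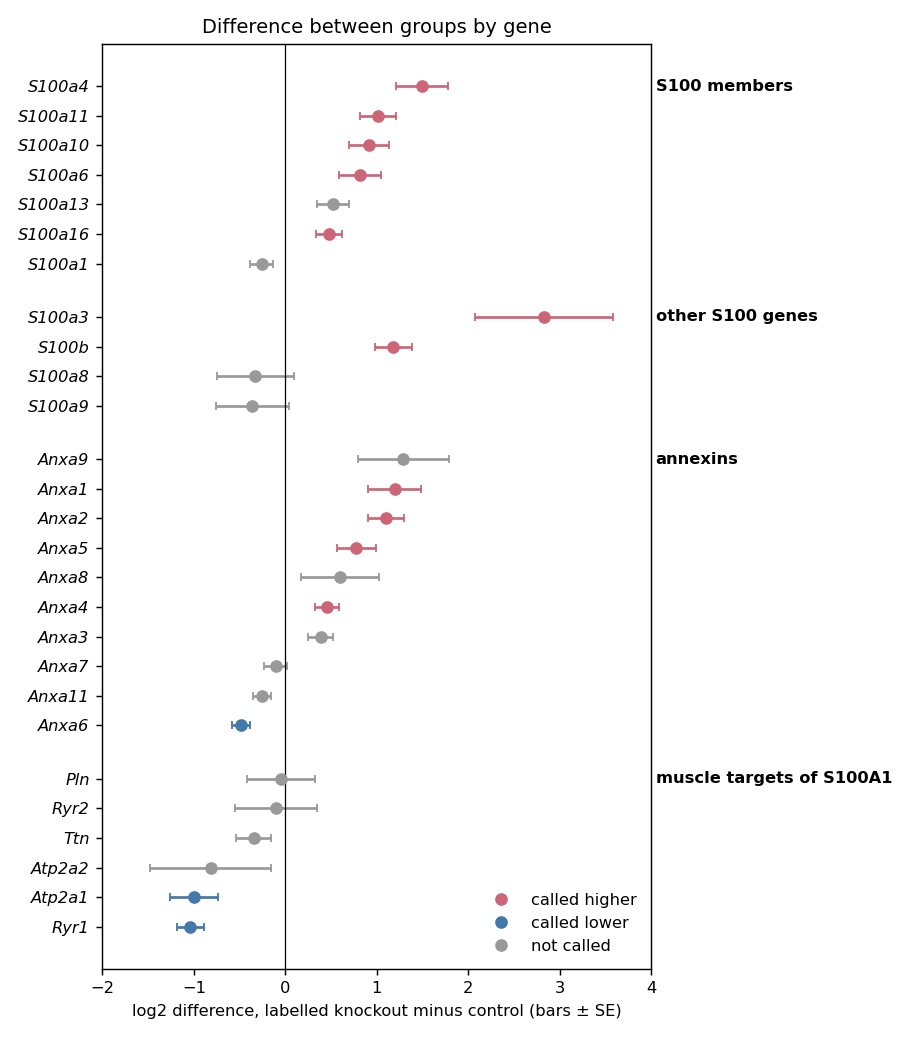
Log2 difference (horizontal axis, libraries labelled knockout minus control, ± SE of the limma fit) of the 7 S100 members, the other tested S100 genes, the annexins and the muscle targets of S100A1, coloured by the call at an adjusted p under 0.05. Of the 7 members, S100a1 is the one left of 0, beside the muscle targets, of which Ryr1 and Atp2a1 are called lower.

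All 7 members lie on chromosome 3, in a pair of groups. S100a1, S100a13, S100a16, S100a4 and S100a6 span 113 kb, and S100a11 and S100a10 span 44.2 kb, with 2.82 Mb between S100a9 and S100a11. Both groups held called members. Of the 107 annotated genes other than S100 genes within the 3.05 Mb span, 5 had a row and 3 were tested. None of the 3 was called by limma, edgeR or DESeq2, and 0 had an unadjusted p under 0.05 with any of these tools.

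**Figure D4:**
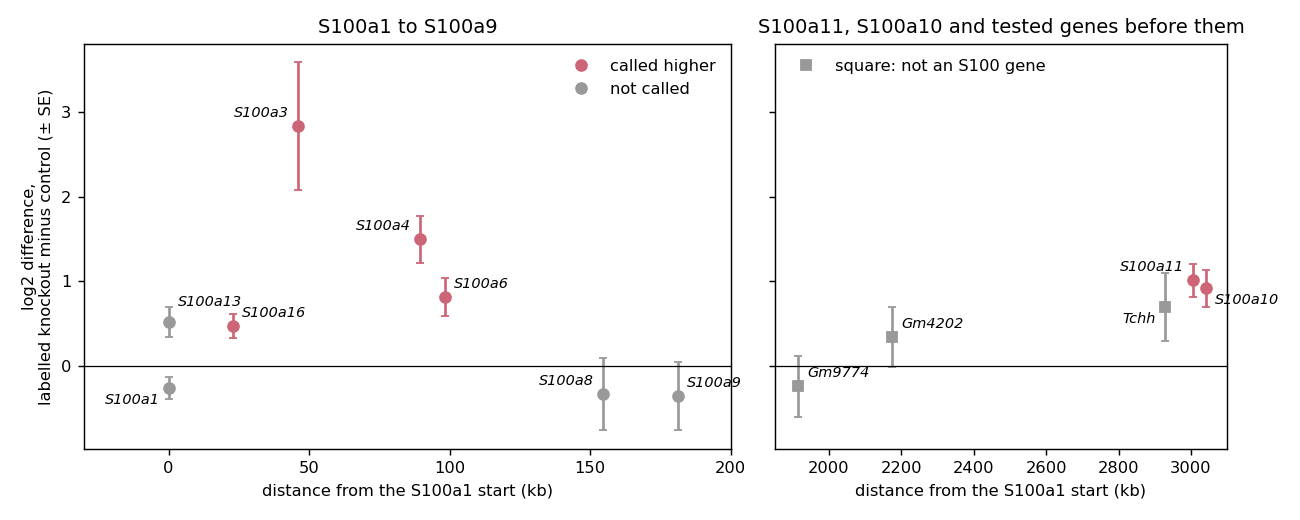
Log2 difference (vertical axis, libraries labelled knockout minus control, ± SE) of the tested genes in the chromosome 3 span by distance from the start of S100a1 in kb, with the axis broken between the panels. S100a1 and S100a13, side by side at the left, differ in sign with neither called, while S100a11 and S100a10, at the far right, are both called higher.

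S100a1 and S100a13 are transcribed away from each other from starts 42 bp apart in GENCODE M21. Their differences had opposite signs, but limma called neither (adjusted p = 0.171 and 0.0543). The bases between their RefSeq starts, chr3:90514331-90514434 on the + strand (GRCm38.p6, the build of mm10), are shown because the pair shares them upstream. The capitals mark the 42 bases between the GENCODE genes.
S100a1 to S100a13: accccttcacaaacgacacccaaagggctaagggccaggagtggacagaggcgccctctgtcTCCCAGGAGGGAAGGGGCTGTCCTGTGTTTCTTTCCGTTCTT

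The 250 bases before the RefSeq starts of S100a11 (chr3:93520246-93520495, + strand) and S100a4 (chr3:90603520-90603769, + strand) are shown for the members with the largest called differences of each chromosomal group. Capitals mark matches to any of 4 motifs, searched on both strands. The first is TATAAA, the TATA box. The AP-1 motif was searched as TGANTCA. A TEAD motif was searched as GGAATG. The core of the GC box is GGGCGG, and none of the motifs overlap here.
S100a11: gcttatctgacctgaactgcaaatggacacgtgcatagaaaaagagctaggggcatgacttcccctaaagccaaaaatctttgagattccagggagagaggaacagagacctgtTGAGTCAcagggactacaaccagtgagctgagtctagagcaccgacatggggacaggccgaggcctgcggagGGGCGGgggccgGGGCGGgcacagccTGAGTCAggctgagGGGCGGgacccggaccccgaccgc
S100a4: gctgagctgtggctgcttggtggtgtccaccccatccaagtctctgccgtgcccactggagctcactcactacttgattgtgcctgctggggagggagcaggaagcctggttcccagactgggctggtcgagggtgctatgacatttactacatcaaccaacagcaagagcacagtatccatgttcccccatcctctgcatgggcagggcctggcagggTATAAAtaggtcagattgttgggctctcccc

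S100a11 held TGANTCA at positions -136 and -38 from its start and GGGCGG at -64, -52 and -24. S100a4 held TATAAA at -31. The windows of S100a1, S100a13 and S100a6 held none of the 4 motifs, and S100a16 held TGANTCA and GGGCGG in 1 of its 2 windows. RefSeq windows of 300 bases, from 250 before to 50 after a start, matched 6 of the 7 members, without S100a10. Over all 32851 such windows, 13.6% held TATAAA, 7.81% TGANTCA, 14.7% GGAATG and 35.7% GGGCGG. A match describes letters in a window and no binding was measured.

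Markers of several cell types moved with the same groups, and those of other cell types had no limma calls, apart from 1 of 8 cartilage markers. Of 10 fibroblast markers 8 were called higher, with a summed normalised read count of 69743 to 197173 in the control libraries and 219179 to 376008 in those labelled knockout. Of 10 macrophage markers 9 were called higher, with sums of 2985 to 7050 against 10919 to 14930. Osteoclast markers were higher for 7 of 8, with sums of 1868 to 14065 against 10270 to 39329. Of 5 osteoblast markers 3 were called higher, with sums of 1011 to 6593 against 5394 to 11717. Skeletal muscle markers were called lower for 5 of 12 by limma and for 11 of 12 by edgeR and by DESeq2, and 11 of 12 did not overlap, with sums of 1966850 to 2097000 against 969687 to 1394520. No marker of these lists was at 0 in all libraries, and the part of these cell types in the S100 differences was not tested.

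The neutrophil markers had sums of 558 to 3337 against 252 to 1269, and the Schwann cell markers 659 to 1487 against 573 to 1463. In these 2 lists limma called 0 of 8 and 0 of 6 genes, with 1 and 0 at an unadjusted p under 0.05, and edgeR and DESeq2 called 0 as well. For 6 erythroid markers the sums were 15487 to 92493 against 3987 to 40817, with a median log2 difference of -1.93. Of these 6, limma called 0, with 6 lower at an unadjusted p under 0.05, and edgeR and DESeq2 called 0, with 0 at an unadjusted p under 0.05. Endothelial markers stood at sums of 4275 to 5679 against 3295 to 6927, with 0 of 6 called by limma. Adipocyte markers had sums of 2325 to 3946 against 2218 to 3277, and limma called 0 of 5. Smooth muscle markers had sums of 1650 to 3148 against 1376 to 2851, also with 0 of 5 called. The keratinocyte list had 1 tested gene, which was not called. Cartilage markers, 1 of 8 called higher, had sums of 3056 to 7880 against 8082 to 12372. Comp, the largest of the 8 in each library, had means of 4358 and 7942 and was not called. The sums were apart, but the groups were apart for 0 of the 8 genes.

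The groups did not overlap, with the libraries labelled knockout higher, for 3 of 7 members, S100a4, S100a10 and S100a11, where 11.7% of all genes tested did the same. For 13.4% of genes the groups did not overlap in the other direction, and no member was among them. Among the control libraries, replicate 3 had the highest S100a6, S100a11, S100a13 and S100a16 and the highest fibroblast and macrophage sums. Of the fibroblast markers, Col1a1 and Col1a2 were highest in control replicate 1 and the others in control replicate 3. Of the macrophage markers, Adgre1, Ctss and Lyz2 were highest in control replicate 3 and the others in control replicate 1 or 4. Among those labelled knockout, replicate 4 had the highest S100a4, S100a6, S100a10 and S100a11 with the highest fibroblast and macrophage sums and the lowest muscle sum. These sums are weighted to their largest genes, such as Fn1 (112638 in knockout replicate 4, not called) and Lyz2 (7476). Col3a1, Col5a1, Dcn, Pdgfra, C1qa and C1qc were also highest in knockout replicate 4. The other markers of both lists peaked in other libraries labelled knockout, such as Col1a1, Col1a2, Cd68 and Csf1r in replicate 1.

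**Figure D5:**
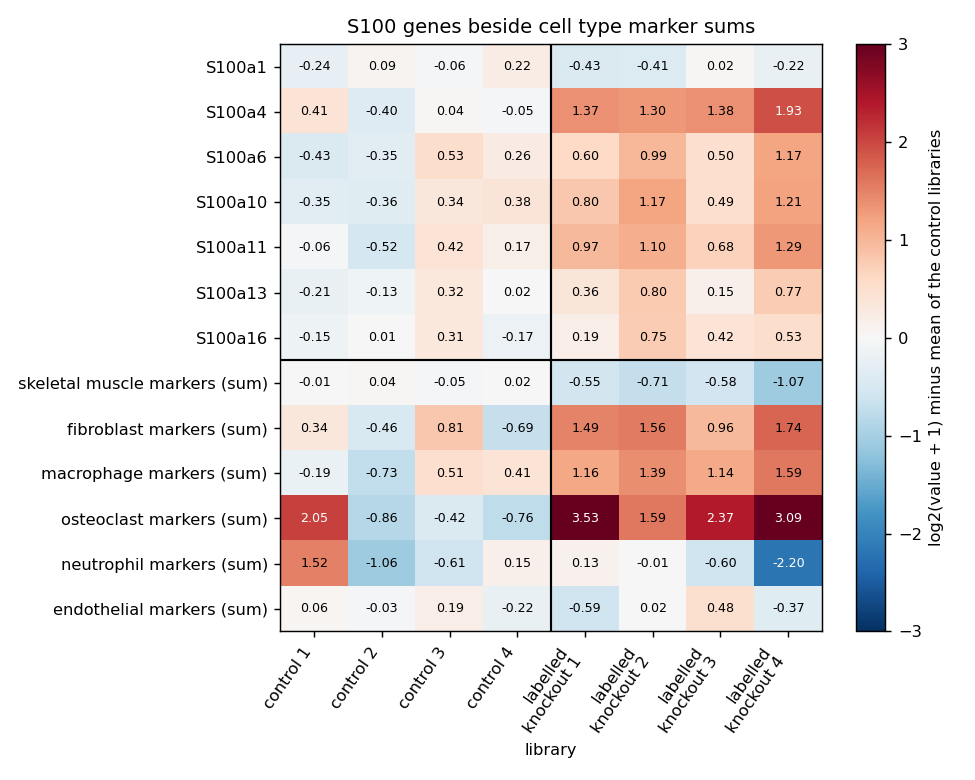
Log2(value + 1) minus the mean of the control libraries, for each S100 gene and for summed cell type markers (rows) in each library (columns). Knockout replicate 4 has the highest values of S100a4 (1.93), S100a6 (1.17) and the fibroblast (1.74) and macrophage sums (1.59), and the lowest muscle sum (-1.07). The sums are weighted to their largest genes.

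Across the 8 libraries S100a6, S100a10, S100a11 and S100a13 had like patterns, with Pearson correlations of log2 levels of 0.90 to 0.98 between each pair. For S100a6 and S100a10 the correlation was 0.98, and 0.95 for the deviations from the group means. S100a16 with these 4 gave 0.79 to 0.89 and S100a4 with them 0.73 to 0.91, while S100a1 was inverse to the other 6, from -0.64 to -0.41. With the group means taken out, S100a4 gave 0.55 with S100a11, where the correlation over the 8 libraries was 0.91. For S100a4 the value was 0.21 with S100a6, 0.20 with S100a10, 0.18 with S100a13 and -0.08 with S100a16. S100a1 gave -0.30 to 0.07 with the other 6. The correlations of S100a4 and S100a1 with the other members were thus all weaker without the group means than over the 8 libraries. These correlations describe 8 libraries that share their 2 groups and their cell makeup.

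Of 11634 genes with a mean value of at least 50, up to 3 of those most like each member were taken by the same correlation. For S100a6 they were Lyz2 (0.99), a lysozyme gene of macrophages and on the macrophage list, Vim (0.99), the intermediate filament gene of mesenchymal cells, and Mcub (0.98), which encodes a subunit of the mitochondrial calcium uniporter. For S100a10 they were Pqlc3 (0.99), Anxa1 (0.98) and Man1a (0.98). S100a11 was closest to Pdgfra (0.99), a growth factor receptor of fibroblasts and on the fibroblast list, Acly (0.99), which makes acetyl-CoA from citrate, and Ddr2 (0.99), a collagen receptor. For S100a13, Bok and Fstl1 are given (0.99 each), where Fstl1 is a secreted glycoprotein of connective tissue. S100a16 was closest to Bace2 (0.99), Olfr558 (0.98) and Igsf8 (0.98), and S100a4 to Nckap5l, Slc35e3 and Ppm1m (0.99, 0.99 and 0.98). S100a1 stood with other genes, namely Gpt (0.98), an alanine aminotransferase, Ndufa11 (0.98), a part of respiratory complex I, and Card19 (0.97). For Ndufa11 the mean was 1629 in the control libraries and 1390 in those labelled knockout, a log2 difference of -0.23 (limma adjusted p = 0.187). Gpt differed by -0.52 (limma adjusted p = 0.0901) and Card19 by -0.17 (limma adjusted p = 0.343). Genes chosen by correlation over the same libraries tend to share the group difference, so these values are no separate evidence.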

How the data were processed

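The deposited table holds 1 signal value per gene and library. The authors aligned reads to mm10 with HISAT2 and counted them with featureCounts, per the submitters' processing notes. Per the labels' design text they normalised, filtered and tested with DESeq2. Versions, annotation and strand setting are not given in the sources used here. Dividing by 1 step per column turned 100% of values into whole numbers in each of 8 columns (tolerance 0.01), so whole reads were recovered for edgeR 4.0.16 and DESeq2 1.42.0. The main test was limma 3.58.1 (R 4.3.3, intensity trend) on log2(value + 1), for the 14949 genes that reached a value of 10 in 4 or more libraries, with Benjamini-Hochberg adjustment over all of them and a call at an adjusted p under 0.05. Single differences and ratios were tested by exact two-sided permutation over 70 assignments. None of the 12 within-group pairs agreed within counting noise (chi-square per degree of freedom 25.9 to 67.7), so none was treated as 1 library deposited in duplicate, which does not show that they are separate animals.

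The table has 20681 rows, of which 12 names are duplicated and 99.2% match GENCODE M21. Value columns without a sample numbered 0. The members and lists were chosen with earlier results of these data known. Named are all members, the other S100 genes, Loxl2, up to 3 called genes of each direction per partner list, Anxa1, Anxa2 and Ager, and the 3 genes most like each member, of which 1 is not reported here. Anxa4 and Comp fall outside this rule and were named after their values were seen. Protein sequences were not used here. Alternatives were other pseudocounts, filters, scalings, tools, a replicate block, a muscle covariate and leaving out each library.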

Additional observations from a re-analysis of the deposited data

Results flagged for a closer look

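Within a group of 4 libraries, a library is singled out when its gap to the nearest other, as a share of the group's range, exceeds Dixon's critical value at the 95% level. Chance singles out about 1 in 20 groups, and 9 instances were found in 116 groups checked. S100a4 in knockout replicate 4 stood at 54.6, beside 35.1 to 37.0 in the other libraries of the group. Loxl2 in control replicate 3 was 1135, beside 282 to 349. S100a3 in the same library was 14.02, beside 0 to 1.08. Olfr558 there was 57.0, beside 41.1 to 41.6. S100a8 and S100a9 in knockout replicate 3 were 784 and 1221, beside 316 to 376 and 507 to 517. The log2 ratio of S100a1 to S100a11 in that library was 0.83, beside -0.03 to 0.09. Alcam was 21.6 in control replicate 1, beside 14.1 to 15.0, and 22.9 in knockout replicate 4, beside 39.3 to 42.4.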

How the results depend on the processing

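The count of 5 members called was 5 with pseudocounts of 0.1 or 10, without a filter, and with TMM or quantile scaling, and 6 with scaling outside muscle and blood genes, edgeR or DESeq2. Leaving out 1 library gave 2 to 6, where the calls over all genes ran from 1740 to 3832. With the replicate block it was 4, since S100a16 reached an adjusted p of 0.0553. The block also ended the calls of Loxl2 (0.0513), Alcam (0.0519), Myh9 (0.0553), Myh10 (0.0522), Fgf1 (0.0527), Atp2a1 (0.0817), Pvalb (0.0728), Mcub (0.0593), Bace2 (0.0537) and Igsf8 (0.0537), with limma adjusted p-values in parentheses. The numbers do not mark a stated litter or day, and same-numbered deviations correlated at 0.21, -0.12, -0.23 and -0.06, with 1 of 4 libraries matching its own number best. Over all genes the block took the calls from 3461 to 2018. With the muscle score as covariate the count was 0, and the log2 difference turned sign for S100a6 (-0.074), S100a13 (-0.13), S100a9 (0.038), Anxa1 (-0.053), Anxa4 (-0.070), Pvalb (0.054), Lyz2 (-0.12), Mcub (-0.26), Ddr2 (-0.14), Bok (-0.21) and Fstl1 (-0.63). Ager turned to 0.11 with a pseudocount of 10, 0.45 with edgeR and 0.44 with DESeq2, and ranged from -0.78 to 0.80 without 1 library. The cause was not tested. Scaling outside muscle and blood genes moved the median of all genes to 0.15 and the calls from 1732 higher and 1729 lower to 2717 and 782. All 80 alternative values of the ratios kept their direction. Their adjusted exact p stayed above 0.05, which shows no stability in a design whose smallest p is 0.0286. With 10 to 62 reads, S100a4 is the member most limited by depth.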
